A study of Mus musculus with 119 samples.

Results

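The 7 heat shock chaperone genes described here were followed across every genotype, inhibitor and LPS time of an RNA-seq series of mouse bone marrow-derived macrophages (BMDMs). The members were taken by symbol, and all 7 of 7 were found among 18098 genes in the file and among the 11971 genes tested. They were *Hspa1a* and *Hspa1b*, which encode the stress-inducible HSP70, *Hsph1*, *Dnajb1*, *Hsp90aa1*, *Hspa8* and *Hspa5*. The series held 119 libraries in 25 groups.

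All mice carried the C57BL/6(NIMR) strain label, and BMDMs were cultured from marrow and replated overnight in medium with low serum before use. LPS, a ligand of TLR4, was given at 100 ng/ml. Wild-type (WT) cells gave 6 libraries each without LPS and at 0.5 and 1 h, and 4 libraries at 2 h. *Map3k8*[D270A] cells, in which the kinase TPL-2 is catalytically inactive, gave 6 libraries without LPS and at 0.5, 1 and 2 h. *Elk1*-/-*Elk4*-/- cells, which lack a pair of ternary complex factors, gave 4 libraries at each of these times. *Nfkb1*[SS/AA] cells, in which the IKK target site of p105 is mutated, gave 6 libraries without LPS and at 0.5 and 1 h. WT cells were also given 0.1 µM PD0325901, an MKK1/2 inhibitor, for 10, 40 or 70 min without LPS (3 libraries each), or 10 min before LPS for 0.5 or 1 h (6 libraries each), beside cells with the solvent DMSO for 10 min (3 libraries). WT cells with 2 µM RSKi47, a RSK inhibitor, gave 4 libraries after 10 min without LPS, 3 after LPS for 0.5 h, and 4 each after LPS for 1 and 2 h. No group had DMSO together with LPS. The *Map3k8*[D270A] libraries are labelled as the same experiment as the WT libraries used as the control, whereas for the other arms the arm and the experiment cannot be told apart. In bulk RNA, fewer cells that make a transcript and less transcript per cell cannot be told apart.

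HSP70 chaperones bind stretches of unfolded protein in a cycle of ATP hydrolysis. J-domain proteins such as DNAJB1 bring them substrate and start hydrolysis, and HSP110 proteins such as HSPH1 help to release ADP and close the cycle. HSP90 takes over partly folded clients such as kinases and receptors, and BiP (HSPA5) does the work of HSP70 in the endoplasmic reticulum (ER). *Hspa1a*, *Hspa1b*, *Hsph1*, *Dnajb1* and *Hsp90aa1* are classic targets of HSF1, the factor that responds to heat and misfolded protein. *Hspa8* encodes the constitutive cytosolic HSP70 (HSC70), and *Hspa5* is a classic target of the unfolded protein response. Since several of these genes respond to temperature and handling, their levels without LPS also served to compare the experiments.

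*Hspa1a* (chromosome 17 from 34969359 to 34972156, minus strand) and *Hspa1b* (chromosome 17 from 34956429 to 34959238, minus strand) are neighbors, 10120 bases apart, in RefSeq on GRCm38.p6, the assembly also called mm10. The other members lie apart from them: *Hsph1* on chromosome 5 (149616843 to 149636498), *Dnajb1* on chromosome 8 (83608175 to 83612653), *Hsp90aa1* on chromosome 12 (110691036 to 110696395), *Hspa8* on chromosome 9 (40801276 to 40805202) and *Hspa5* on chromosome 2 (34772090 to 34776529). RefSeq promoter windows of 300 bases, from 250 bases before to 50 bases after the start site, were matched for 5 of the 7 members. The windows of *Hspa1a* (chr17:34972107-34972406, minus strand) and *Hspa1b* (chr17:34959189-34959488, minus strand) are shown because the copies are followed as separate genes although 296 of the 300 bases, or 98.7%, are the same. The window of *Hspa5* (chr2:34771840-34772139, plus strand) is shown for the contrast of an ER chaperone. Capitals mark the 2-unit heat shock element GAANNTTC and, in *Hspa5*, the ER stress response element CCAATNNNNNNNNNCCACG.

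Hspa1a: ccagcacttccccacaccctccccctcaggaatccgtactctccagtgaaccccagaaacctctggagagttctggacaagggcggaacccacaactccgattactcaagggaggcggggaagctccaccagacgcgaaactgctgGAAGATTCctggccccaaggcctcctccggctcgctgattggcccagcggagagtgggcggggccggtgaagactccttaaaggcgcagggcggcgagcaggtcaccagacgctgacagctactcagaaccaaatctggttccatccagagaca

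Hspa1b: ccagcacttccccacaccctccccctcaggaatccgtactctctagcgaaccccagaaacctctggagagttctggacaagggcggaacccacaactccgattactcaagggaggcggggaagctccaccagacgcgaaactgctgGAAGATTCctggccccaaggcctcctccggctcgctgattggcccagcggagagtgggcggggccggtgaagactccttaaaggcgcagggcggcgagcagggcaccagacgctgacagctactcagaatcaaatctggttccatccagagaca

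Hspa5: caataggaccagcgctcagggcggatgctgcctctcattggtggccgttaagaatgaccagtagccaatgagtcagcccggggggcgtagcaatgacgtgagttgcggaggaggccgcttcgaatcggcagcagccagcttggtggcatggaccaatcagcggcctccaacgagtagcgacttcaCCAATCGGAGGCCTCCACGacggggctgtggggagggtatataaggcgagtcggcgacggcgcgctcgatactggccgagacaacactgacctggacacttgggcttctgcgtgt

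The motifs were searched on both strands as exact letters in the 32851 RefSeq mouse promoter windows of this length. *Hspa1a* and *Hspa1b* each held 1 match to GAANNTTC, GAAGATTC, from 104 to 97 bases before the start site, and 7.86% of all windows held at least 1 match. *Hsph1* held 1 match, GAAAGTTC, after its start site, which was part of a 3-unit element (GAANNTTCNNGAA, in 0.603% of all windows) that overlaps the 2-unit one. The listed windows of *Dnajb1* and *Hspa5* held no match to these letters. *Hspa5* held 1 match to the ER stress response element, found in 0.119% of all windows, and 4 CCAAT boxes, of which 1 is part of that element (CCAAT is in 37.4% of all windows). No listed window of a member held the CArG box that serum response factor binds, which 1.63% of all windows held. These matches describe the letters only and were not tested as binding sites.

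The deposited values are normalized and on a log2 scale, so 1 unit is taken as a 2-fold difference, and they are not corrected for transcript length. Levels were therefore compared for the same gene between groups, and not between genes. Differences were tested with limma, and a member was called higher or lower where its p-value, after Benjamini-Hochberg adjustment for the 11971 genes, was below 0.05. Macrophage genes were high in every library, with a summed level of the 8 markers from 18.35 to 19.23 (log2). The summed level of 8 neutrophil markers ran from 6.14 to 11.04 and was highest in the *Elk1*-/-*Elk4*-/- groups (10.04 to 11.04), whereas *Mpo*, *Elane* and *Ly6g* did not reach the level needed for testing. Fibroblast markers summed to between 3.93 and 9.42, with the highest group mean in RSKi47-treated cells without LPS (6.67). Of these, *Col3a1*, *Dcn* and *Pdgfra* did not reach the level needed for testing. In every comparison of *Elk1*-/-*Elk4*-/-, *Nfkb1*[SS/AA], PD0325901-treated, RSKi47-treated or DMSO-treated cells with WT, some macrophage markers were called higher and others lower. The part of all these markers in the results was not tested.

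LPS raised both inducible HSP70 genes in WT cells, and only these 2 of the 7 members changed by 2-fold or more. Without LPS, *Hspa1a* stood at 7.81, 7.68, 7.85, 7.68, 7.62 and 7.65 in the WT replicates numbered 4 to 9, and at 1 h it stood at 10.01, 10.01, 10.15, 10.36, 10.15 and 10.13. *Hspa1b* stood at 7.06, 7.03, 7.32, 7.42, 6.99 and 7.25 without LPS and at 10.16, 9.77, 10.15, 10.42, 9.92 and 10.22 at 1 h. The libraries with and without LPS did not overlap for either gene. The rise at 1 h was 2.42 ± 0.12 (SE; adjusted p = 1.49e-35) for *Hspa1a*, a ratio of 5.36 on the log2 scale, and 2.93 ± 0.15 (adjusted p = 8.13e-34) for *Hspa1b*, a ratio of 7.61. With the copies summed to 1 feature the rise was 2.65 ± 0.12. With LPS, 2 of 2 tested dendritic cell markers were higher at 1 and 2 h and 1 of 1 tested T cell marker at 2 h, whereas *Flt3*, *Siglech*, *Cd3e*, *Cd3d* and *Cd3g* did not reach the level needed for testing. Of 8 macrophage markers, 1 was higher at 0.5 h, 3 were higher at 1 h, and 4 were higher and 1 lower at 2 h. No tested neutrophil or fibroblast marker passed the test, and the part of these markers in the results was not tested.

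From 1 to 2 h, *Hspa1a* fell by 0.77 ± 0.13 (adjusted p = 1.63e-07), to 9.38, 9.31, 9.24 and 9.52 in WT replicates 4 to 7. *Hspa1b* stayed at 9.95, 9.97, 9.95 and 10.32, with a difference from 1 h of -0.06 ± 0.17 (adjusted p = 0.762). The summed feature fell by 0.38 ± 0.14 (adjusted p = 0.0119). At 2 h, *Hspa1a* was thus 1.65 ± 0.13 and *Hspa1b* 2.87 ± 0.17 above the level without LPS.

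At 0.5 h the rises were 1.59 ± 0.12 for *Hspa1a* (adjusted p = 7.93e-22) and 1.41 ± 0.15 for *Hspa1b* (adjusted p = 2.5e-13), and the WT replicates fell into 2 sets. The SE and p pool the spread of all groups, whereas the WT libraries at 0.5 h had an SD of 0.49 and 0.68. At 1 h the SD was 0.13 and 0.23. *Hspa1a* stood at 8.83, 8.83 and 8.95 in replicates 4 to 6, and at 9.90, 9.66 and 9.66 in replicates 7 to 9. *Hspa1b* stood at 7.97, 7.91 and 8.19 in the first set, and at 9.48, 8.69 and 9.29 in the second. The sets did not overlap. Within them the rises of *Hspa1a* at 0.5 h were 1.09 ± 0.09 and 2.09 ± 0.10 and those of *Hspa1b* were 0.89 ± 0.14 and 1.94 ± 0.24, all past the test in fits of these libraries with *Map3k8*[D270A] replicates 1 to 3 or 4 to 6. The labels do not define these sets or match them between genotypes. They were taken from an earlier reading of these data, so values within them describe and do not support the pooled result. At 1 h the sets were close, with rises of 2.28 and 2.56 for *Hspa1a* and 2.89 and 2.97 for *Hspa1b*.

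**Figure D1:**
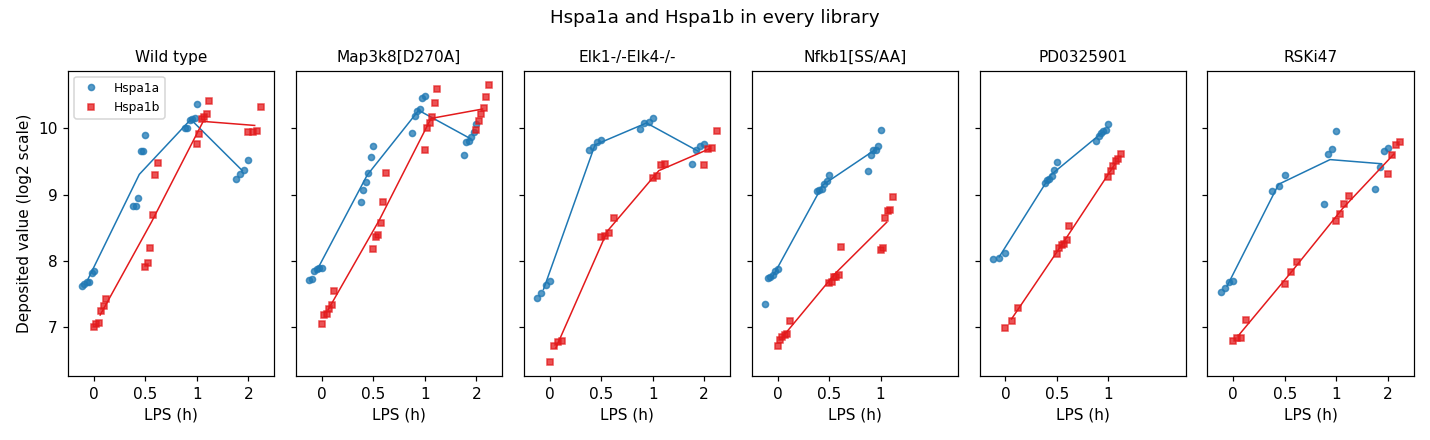
*Hspa1a* (circles) and *Hspa1b* (squares) in every library (vertical axis, deposited value on the log2 scale) by hours of LPS (horizontal axis, times evenly spaced) in the 6 arms. Lines join group means, points are spread sideways by value, and the points at 0 h of the PD0325901 and RSKi47 arms are cells with 10 min of inhibitor. In WT cells *Hspa1a* falls from 10.01 to 10.36 at 1 h to 9.24 to 9.52 at 2 h, whereas *Hspa1b* (9.77 to 10.42 at 1 h) lies from 9.95 to 10.32 at 2 h.

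The other 5 members moved by less than 2-fold in LPS-treated WT cells. At 0.5 h, 4 of the 7 members were higher and none was lower, when 12% of all genes tested were called. *Hspa5* was 0.17 ± 0.05 higher (adjusted p = 0.011) and *Dnajb1* was 0.13 ± 0.04 higher (adjusted p = 0.0108). These small differences were lost without WT replicate 8 (0.10 for *Dnajb1* and 0.16 for *Hspa5*), and that of *Hspa5* also without WT replicate 7 (0.15). After quantile normalization neither was called (0.10 each, adjusted p = 0.056 for *Dnajb1* and 0.115 for *Hspa5*). In WT replicates 4 to 6, *Dnajb1* was at 0.09 (adjusted p = 0.266) and *Hspa5* at 0.07 (adjusted p = 0.105). In WT replicates 7 to 9 they were at 0.16 (adjusted p = 0.0212) and 0.27 (adjusted p = 0.0721). A fit of the compared arm alone did not call *Dnajb1* (0.13, adjusted p = 0.0607).

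At 1 h, 4 members were higher and none was lower, against 47.7% of all genes called. *Hspa5* went from 14.50, 14.52, 14.51, 14.47, 14.50 and 14.59 to 14.87, 14.94, 14.92, 15.06, 15.01 and 15.15, a rise of 0.48 ± 0.05 (adjusted p = 1.9e-14). *Hsp90aa1*, which encodes the inducible HSP90α, was 0.28 ± 0.05 higher (adjusted p = 1.87e-07). *Hsph1* (-0.08 ± 0.07), *Dnajb1* (-0.00 ± 0.04) and *Hspa8* (0.06 ± 0.03) did not pass the test.

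At 2 h, 4 members were higher and 2 were lower, against 72% of all genes called. *Hsph1*, whose product releases ADP from HSP70, went from 10.08, 10.15, 10.20, 10.31, 10.10 and 10.49 without LPS to 9.66, 9.53, 9.65 and 9.90, which did not overlap, and fell by 0.54 ± 0.08 (adjusted p = 1.07e-08). In WT replicates 7 to 9 alone, with 1 library at 2 h, this value was -0.39 and that from 1 to 2 h was -0.37. Both are given as sizes only. *Dnajb1*, the J-domain partner, fell by 0.14 ± 0.04 (adjusted p = 0.00123), with -0.10 in WT replicates 4 to 6 alone (adjusted p = 0.054). *Hsp90aa1* was 0.42 ± 0.05 higher (adjusted p = 1.35e-11), *Hspa5* was 0.47 ± 0.06 higher (adjusted p = 1.13e-12), and *Hspa8* was at 0.07 ± 0.04 (adjusted p = 0.0997). From 1 to 2 h, *Hspa1a*, *Hsph1* (-0.46) and *Dnajb1* (-0.14) fell and *Hsp90aa1* rose by 0.14 ± 0.05, which made 4 of 7 members called against 65.9% of all genes. The last of these was lost without WT replicate 4, 6 or 7, with 0.09 without replicate 7, and that of *Dnajb1* was lost in WT replicates 4 to 6 alone (-0.07, adjusted p = 0.178).

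The small rises depended on the scaling. After quantile normalization of the libraries, *Hsp90aa1* at 1 and 2 h (0.08 and 0.05, adjusted p = 0.159 and 0.452) and *Hspa5* at 1 and 2 h (0.10 and -0.0014, adjusted p = 0.0741 and 0.982) were no longer called. *Hspa8* then fell by 0.18 at 1 h and by 0.43 at 2 h (adjusted p = 5e-05 and 8.41e-16). *Hsph1*, already lower, was then called at 1 h (-0.18, adjusted p = 0.0316). No direction is therefore given for *Hspa8* in LPS-treated WT cells, and those of *Hsp90aa1* and *Hspa5* hold for the deposited scaling and for libraries centered on their median.

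**Figure D2:**
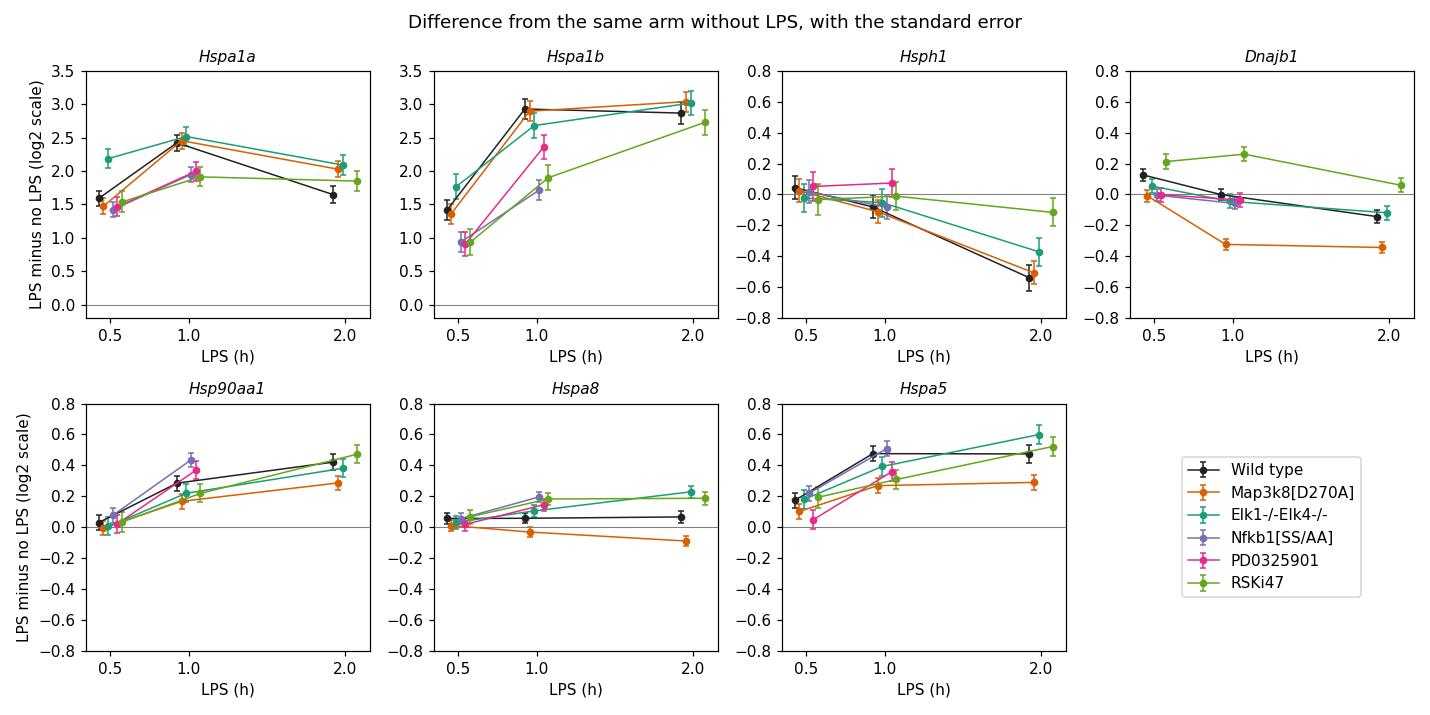
Difference between LPS-treated and untreated cells of the same arm (vertical axis, log2 scale) by hours of LPS (horizontal axis) for the 7 members, with the standard error of limma as bars and 1 color per arm. For PD0325901 the untreated cells had 40 or 70 min of inhibitor. *Hspa1a* and *Hspa1b* rise in every arm shown, and the other members stay between -0.54 and 0.60.

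TPL-2 kinase activity made no detected difference to the inducible HSP70 genes up to 1 h of LPS. *Hspa1a* at 1 h stood at 10.29, 10.19, 9.93, 10.46, 10.49 and 10.26 in *Map3k8*[D270A] replicates 1 to 6, which overlapped WT, and the difference was 0.14 ± 0.12 (adjusted p = 0.546). *Hspa1b* differed by 0.04 ± 0.15 (adjusted p = 0.908). At 2 h, *Hspa1a* stood at 9.79, 9.87, 9.60, 10.07, 9.94 and 9.81, all above the 4 WT libraries, and was 0.49 ± 0.13 higher (adjusted p = 0.0024). *Hspa1b* at 2 h differed by 0.25 ± 0.17 (adjusted p = 0.283). In the second replicate set alone, which has 1 WT library at 2 h, the value for *Hspa1a* was 0.42. With the copies summed, the difference at 2 h was 0.345 ± 0.14 (adjusted p = 0.0485). Their LPS responses then differed by 0.25 ± 0.18 (adjusted p = 0.408). For *Hspa1a* by itself, the difference of LPS responses at 2 h was not called with all libraries. It ran from 0.31 to 0.44 with each replicate number left out in turn, and was called in the first replicate set alone (0.46, adjusted p = 0.00907). At 2 h 1 of 2 tested dendritic cell markers and 3 of 8 macrophage markers were lower than in WT, and their part was not tested.

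*Dnajb1* was lower in the mutant at each time of LPS. It was not called in the first replicate set alone at 0.5 h (-0.12, adjusted p = 0.155). In the second set alone, which has 1 WT library at 2 h, the value at 2 h was -0.09. WT cells stood at 9.40, 9.53, 9.56, 9.61, 9.66 and 9.53 at 1 h and *Map3k8*[D270A] cells at 9.15, 9.17, 9.14, 9.20, 9.21 and 9.24, so that every mutant library lay below every WT library. The mutant cells were 0.36 ± 0.04 lower (adjusted p = 5.75e-14). Without LPS they differed by -0.04 ± 0.04 (adjusted p = 0.706). The response to 1 h of LPS was a fall of 0.32 ± 0.04 in the mutant and -0.00 ± 0.04 in WT, and the difference of these responses, -0.32 ± 0.05, passed the test (adjusted p = 3.24e-06), with -0.30 and -0.35 in the replicate sets alone. At 2 h the responses differed by -0.20 ± 0.06 (adjusted p = 0.00519), with -0.30 in the first replicate set. The second set, with 1 WT library at 2 h, gave -0.06.

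*Hspa5* was 0.20 ± 0.05 lower in the mutant at 1 h (adjusted p = 0.0032) and 0.18 ± 0.06 lower at 2 h (adjusted p = 0.0112), and *Hsph1* was 0.24 ± 0.08 higher at 2 h (adjusted p = 0.0201). In the second replicate set alone, *Hspa5* at 1 h was not called (-0.24, adjusted p = 0.165). At 2 h, where this set has 1 WT library, *Hspa5* was at -0.24 and *Hsph1* at 0.12. *Hsph1* at 2 h was not called in a fit of these arms alone (0.24, adjusted p = 0.133). *Map3k8*[D270A] replicate 4 stood above its group for *Hspa5*, at 14.78 without LPS and 15.00 at 1 h. The call of *Hspa5* at 2 h was lost without WT replicate 7 (-0.15) and that of *Hsph1* without WT replicate 4, 5 or 6 (0.23, 0.19 and 0.23). After quantile normalization *Hspa5* was at -0.11 at both times (adjusted p = 0.11 and 0.0993).

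By count, 0 of 7 members differed between *Map3k8*[D270A] and WT cells without LPS (1.71% of all genes; 1528 genes at an unadjusted p under 0.05 in limma). At 0.5 h 1 member was lower, *Dnajb1* by 0.18 (1.84% of all genes), at 1 h 2 were lower (10.7%), and at 2 h 2 were higher and 2 lower (28.9%). The LPS responses differed for no member at 0.5 h (0.175% of all genes, and 234 genes at an unadjusted p under 0.05), for *Dnajb1* at 1 h (2.4%), and for *Dnajb1* and *Hspa8* at 2 h (17.2%). The value for *Hspa8*, -0.16 ± 0.05 (adjusted p = 0.018), was lost without WT replicate 6 (-0.12), without *Map3k8*[D270A] replicate 4 (-0.11), and after quantile normalization (-0.03). It was also not called in a fit of these arms alone (-0.16, adjusted p = 0.0605) or in the first replicate set (-0.05, adjusted p = 0.55). The second set, with 1 WT library at 2 h, gave -0.18. With the replicate number as a block, the responses of *Hspa5* also differed at 1 h (-0.21) and 2 h (-0.22). Those of *Hsp90aa1* then differed at 2 h (-0.19).

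**Figure D3:**
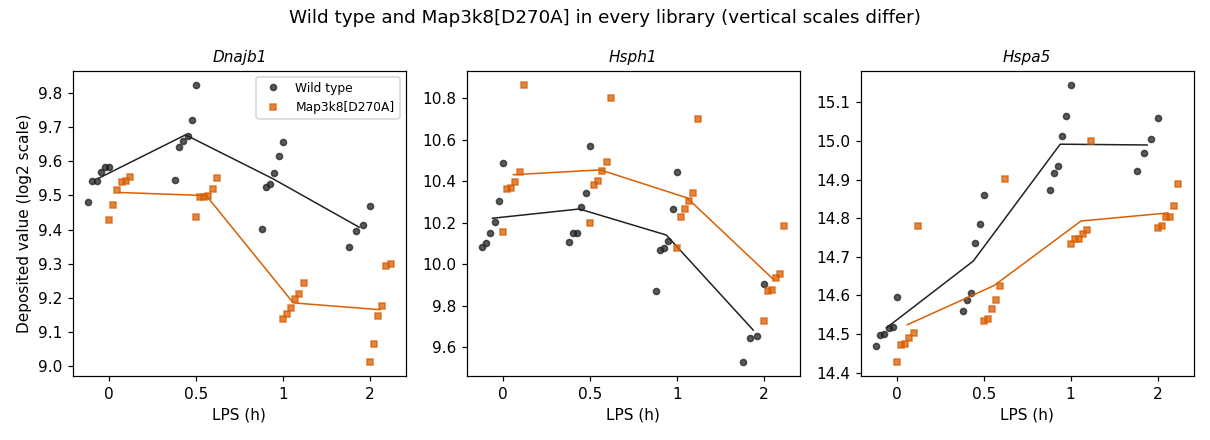
*Dnajb1*, *Hsph1* and *Hspa5* in every WT library (circles) and *Map3k8*[D270A] library (squares), as deposited values on the log2 scale (vertical axes, which differ) by hours of LPS (horizontal axis). Lines join group means. *Dnajb1* separates the genotypes at 1 h, from 9.40 to 9.66 in WT and from 9.14 to 9.24 in the mutant.

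In *Nfkb1*[SS/AA] cells *Hspa1b* was induced less. It stood at 6.87, 6.88, 6.71, 7.08, 6.85 and 6.81 without LPS and at 8.75, 8.77, 8.16, 8.96, 8.19 and 8.65 at 1 h, below every WT library at 1 h. At 1 h 3 of 5 tested neutrophil markers were higher than in WT, and their part was not tested. The rise of *Hspa1b* was 1.71 ± 0.15, against 2.93 in WT, and the responses differed by -1.22 ± 0.21 (adjusted p = 8.99e-06). The rise of *Hspa1a* was 1.95 ± 0.12 and its response differed by -0.47 ± 0.17 (adjusted p = 0.0717). With the copies summed, the response differed by -0.78 ± 0.17 (adjusted p = 0.000936). *Hspa1b* was thus the only member called in that comparison, against 6.07% of all genes, and no member was called at 0.5 h (0.309%, and 369 genes at an unadjusted p under 0.05). With the replicate number as a block, since the WT and the *Nfkb1*[SS/AA] replicate numbers pair libraries across times, *Hsp90aa1* was also called at 1 h (0.15, adjusted p = 0.0272).

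RSKi47-treated cells also had less *Hspa1b* at 1 h, when 5 of 5 tested neutrophil markers and 2 of 2 tested fibroblast markers were higher than in WT, whose part was not tested. *Hspa1b* stood at 8.97, 8.71, 8.86 and 8.61 at 1 h, from 6.78, 6.83, 7.10 and 6.83 without LPS, a difference of 1.90 ± 0.18. The response differed from that of WT by -1.03 ± 0.24 (adjusted p = 0.00182), and with the copies summed by -0.74 ± 0.19 (adjusted p = 0.00869). By 2 h it had reached 9.60, 9.75, 9.79 and 9.31, and the difference of responses was -0.14 ± 0.25 (adjusted p = 0.756). *Hspa1a* was 8.86 in replicate 4 at 1 h and 9.62 to 9.96 in the other three. Untreated RSKi47 cells had 10 min of inhibitor, whereas LPS-treated cells had 10 min before LPS and then the time of LPS.

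*Dnajb1* went the other way under RSKi47. It rose by 0.26 ± 0.04 at 1 h, to 9.68, 9.69, 9.75 and 9.66 from 9.42, 9.43, 9.42 and 9.47, and its response differed from that of WT by 0.26 ± 0.06 (adjusted p = 0.00111). At 2 h the responses of *Dnajb1* differed by 0.20 ± 0.06 (adjusted p = 0.00936) and those of *Hsph1* by 0.42 ± 0.12 (adjusted p = 0.0075), and the first was lost without RSKi47 replicate 4 (0.16). The members called were 0 at 0.5 h (0.0251% of all genes, and 451 genes at an unadjusted p under 0.05), 2 at 1 h (5.54%) and 2 at 2 h (21%). With the replicate number as a block, *Hspa5* was also called at 1 h (-0.17) and *Hspa8* at 2 h (0.12).

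In PD0325901-treated cells no difference of the HSP70 responses from those of WT passed the test. At 1 h of LPS, *Hspa1b* stood at 9.27, 9.36, 9.50, 9.61, 9.43 and 9.54, below every WT library, and was 0.65 ± 0.15 lower (adjusted p = 0.000278), or 0.41 ± 0.12 lower with the copies summed (adjusted p = 0.00602). At that time 5 of 5 tested neutrophil markers were higher than in WT, and their part was not tested. Relative to cells with 70 min of inhibitor, its response differed from WT by -0.57 ± 0.24 (adjusted p = 0.213) and that of *Hspa1a* by -0.43 ± 0.19 (adjusted p = 0.251). No member was called for the difference of responses at 0.5 h (1.49% of all genes, and 1216 genes at an unadjusted p under 0.05) or at 1 h (3.58%, and 1667 genes). The 3 libraries without LPS had a wide spread in *Hspa1a* at 40 min (7.90, 8.01 and 7.57).

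In *Elk1*-/-*Elk4*-/- cells both HSP70 genes were induced. *Hspa1a* stood at 10.16, 10.10, 10.08 and 9.99 at 1 h, 2.52 ± 0.14 above cells without LPS, and *Hspa1b* at 9.28, 9.45, 9.26 and 9.46, 2.68 ± 0.18 above them. *Hspa1b* was lower than in WT at 1 h, by 0.74 ± 0.17 (adjusted p = 9.86e-05), and already lower without LPS, by 0.50 ± 0.17 (adjusted p = 0.00903). With the copies summed, the differences were -0.36 ± 0.14 at 1 h (adjusted p = 0.0232) and -0.28 ± 0.14 without LPS (adjusted p = 0.0757), so that the latter was not called. At 0.5 h, 1 of 7 members was higher than in WT and 4 were lower, against 46.4% of all genes. *Hspa1a* then had a mean of 9.75, against 9.30 in WT, and the summed copies differed by 0.25 ± 0.14 (adjusted p = 0.132). The *Elk1*-/-*Elk4*-/- libraries, from 9.67 to 9.82 for *Hspa1a*, lay within WT replicates 7 to 9 (9.66 to 9.90). They lay above WT replicates 4 to 6 (8.83 to 8.95), so the size of this difference depends on the WT set. The LPS responses differed for no member at 0.5 h (0.109% of all genes, and 507 genes at an unadjusted p under 0.05) or 1 h (1.53%, and 913 genes), and for 1 member at 2 h (17.8%). That member was *Hspa8* (0.16 ± 0.05, adjusted p = 0.0275), lost when any of WT replicates 4, 5 and 7 or *Elk1*-/-*Elk4*-/- replicates 2 and 3 was left out (0.13 to 0.16). All 5 tested neutrophil markers were higher than in WT at every time in these cells, and their part in these values was not tested.

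The difference between the copies within a library was then compared, since it drops whatever is common to both genes. It was chosen after the values were seen, so it is given as a description with no test. In WT cells *Hspa1b* minus *Hspa1a* was -0.54 ± 0.18 (SD, n = 6) without LPS, -0.72 ± 0.26 (n = 6) at 0.5 h, -0.03 ± 0.17 (n = 6) at 1 h and 0.68 ± 0.10 (n = 4) at 2 h. The libraries at 0 and 0.5 h overlapped, whereas those at 1 and 2 h lay above them and did not overlap each other. The change from 1 to 2 h was 0.71 in WT, 0.57 in *Map3k8*[D270A], 0.76 in *Elk1*-/-*Elk4*-/- and 0.89 in RSKi47-treated cells, without overlap between the times in any of these arms.

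Against WT at 1 h, the difference between the copies was lower by 1.06 in *Nfkb1*[SS/AA], 0.71 in RSKi47-treated, 0.69 in *Elk1*-/-*Elk4*-/- and 0.45 in PD0325901-treated cells, without overlap with WT. For RSKi47 the gap was narrow, with replicate 4 at -0.25 and the lowest WT library at -0.24. The other RSKi47 libraries lay from -0.99 to -0.82. In *Map3k8*[D270A] cells, which share the experiment of WT, the difference between the copies was lower by 0.09 and overlapped WT. Part of the contrast was there without LPS, where *Elk1*-/-*Elk4*-/- and *Nfkb1*[SS/AA] cells were lower than WT by 0.35 and 0.32, with some overlap. Without LPS, RSKi47-treated cells were lower by 0.19 with overlap, and the means of PD0325901-treated cells were -0.94, -0.47 and -0.85 at 10, 40 and 70 min. The transcripts of the copies share much of their sequence. Of the stretches of 50 bases in the annotated *Hspa1a* transcript, 58.8% also occur in that of *Hspa1b*, and 62.3% the other way round, so part of the reads could not be assigned to 1 copy by sequence and were divided by the authors' estimate. How this division bears on the differences was not tested.

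**Figure D4:**
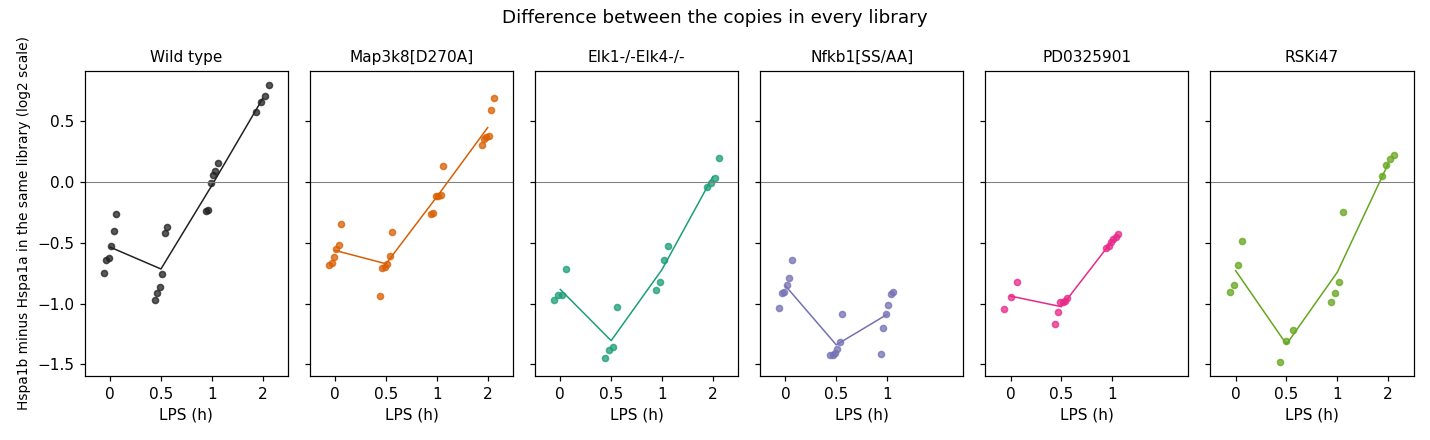
*Hspa1b* minus *Hspa1a* in the same library (vertical axis, log2 scale) by hours of LPS (horizontal axis, times evenly spaced) in the 6 arms, with lines through group means and 0 h of the inhibitor arms being 10 min of inhibitor. The difference is -0.54 and -0.72 in WT at 0 and 0.5 h and 0.68 at 2 h, and at 1 h it is -0.03 in WT, -0.12 in *Map3k8*[D270A] and lower in the other arms, down to -1.09 in *Nfkb1*[SS/AA]. Only its change between groups is read, since its size depends on the lengths of the transcripts.

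Without LPS, 38 libraries of 9 groups served to compare the experiments. The group means spanned 0.49 for *Hspa1a*, 0.68 for *Hspa1b*, 0.69 for *Hsph1*, 0.29 for *Dnajb1*, 0.53 for *Hsp90aa1*, 0.62 for *Hspa8* and 0.60 for *Hspa5*. All of these are below 2-fold, and the highest unstimulated *Hspa1a* library, at 8.12, lay below the lowest WT library at 0.5 h of LPS, at 8.83. In the 5 groups tested against WT, none of *Hspa1a*, *Hspa1b*, *Hsph1*, *Dnajb1* and *Hsp90aa1* was called higher with all libraries. *Hsp90aa1* in *Elk1*-/-*Elk4*-/- cells was called higher without WT replicate 7, 8 or 9 or *Elk1*-/-*Elk4*-/- replicate 3, and after quantile normalization (0.12 to 0.14). *Hsph1* in *Map3k8*[D270A] cells was called higher without WT replicate 9 (0.26) or *Map3k8*[D270A] replicate 3 (0.27).

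The experiments did differ, and *Hspa1b*, *Hsph1*, *Dnajb1* and *Hsp90aa1* were each called lower than WT in some group. RSKi47-treated cells had 5 of 7 members lower than WT and none higher (53% of all genes called). In these libraries 4 of 5 tested neutrophil markers and 2 of 2 tested fibroblast markers were higher than in WT, and their part was not tested. *Hspa8* stood at 15.42, 15.43, 15.43 and 15.39, below every WT library (15.68 to 15.77), and was 0.32 ± 0.04 lower (adjusted p = 6.46e-12). *Hsp90aa1* (-0.27), *Hsph1* (-0.25), *Hspa5* (-0.24) and *Dnajb1* (-0.11) were the others, and *Hsph1* was lost without RSKi47 replicate 3 (-0.20). *Elk1*-/-*Elk4*-/- cells had *Hspa1b*, *Dnajb1* (-0.21) and *Hspa5* (-0.19) lower, 3 of 7 members against 53.6% of all genes, of which *Hspa1b* was not called with the copies summed.

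*Nfkb1*[SS/AA] cells had *Hsph1* and *Hsp90aa1* lower. In these libraries 1 of 2 tested dendritic cell markers was higher than in WT, and 2 of 8 macrophage markers were higher and 2 lower. The part of these markers was not tested. *Hsph1* stood at 9.78, 9.89, 9.65, 9.69, 9.68 and 9.79, and was 0.48 ± 0.07 lower (adjusted p = 1.57e-07). *Hsp90aa1* stood between 12.83 and 12.93, against 13.17 to 13.44 in WT, and was 0.42 ± 0.05 lower (adjusted p = 4.97e-12). With *Hspa5* (-0.13, adjusted p = 0.0437), which was lost when any of 7 replicates was left out (-0.13 to -0.10), 3 of 7 members were called against 32% of all genes. *Hspa5* was also not called in a fit of these arms alone (-0.13, adjusted p = 0.116). With the replicate number as a block it was at 0.00015, which rests on numbers 4 to 6, the ones both arms have. These numbers do not pair the arms (correlations of 0.009 to 0.062 without LPS), so that value is no paired check.

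DMSO-treated cells had *Hspa5* at 14.84, 14.83 and 14.88, which was 0.33 ± 0.06 above WT (adjusted p = 2.08e-05), and *Hspa8* 0.26 ± 0.04 above WT (adjusted p = 4.7e-07; 0.16 after quantile normalization, adjusted p = 0.00825), or 2 of 7 members against 23.6% of all genes. DMSO cells had 5 of 5 tested neutrophil markers higher than WT as well, whose part was not tested. PD0325901 for 10 min changed no member against DMSO, when limma called 0% of all genes, with 245 genes at an unadjusted p under 0.05. *Hspa8* then stood at 16.03, 16.04 and 16.04 at 10 min, 15.87, 15.84 and 15.87 at 40 min and 15.68, 15.68 and 15.72 at 70 min of inhibitor, without overlap. It was 0.18 ± 0.05 lower at 40 min (adjusted p = 0.0139; 1 of 7 members, 3.58% of all genes) and 0.34 ± 0.05 lower at 70 min (adjusted p = 1.96e-08). *Dnajb1* was also lower at 70 min (-0.19, adjusted p = 0.0121), which made 2 of 7 members against 6.09% of all genes. A fit of the PD0325901 libraries alone called 5 of 7 at 70 min, with *Hsph1* (-0.29), *Hsp90aa1* (-0.13) and *Hspa5* (-0.13) lower as well. At both times 2 of 5 tested neutrophil markers were higher than at 10 min, and their part was not tested. With any of the 3 replicates left out, *Hspa8* at 40 min (-0.19 to -0.17) and *Dnajb1* at 70 min (-0.21 to -0.17) were lost, and a solvent control at these times was not part of the design.

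**Figure D5:**
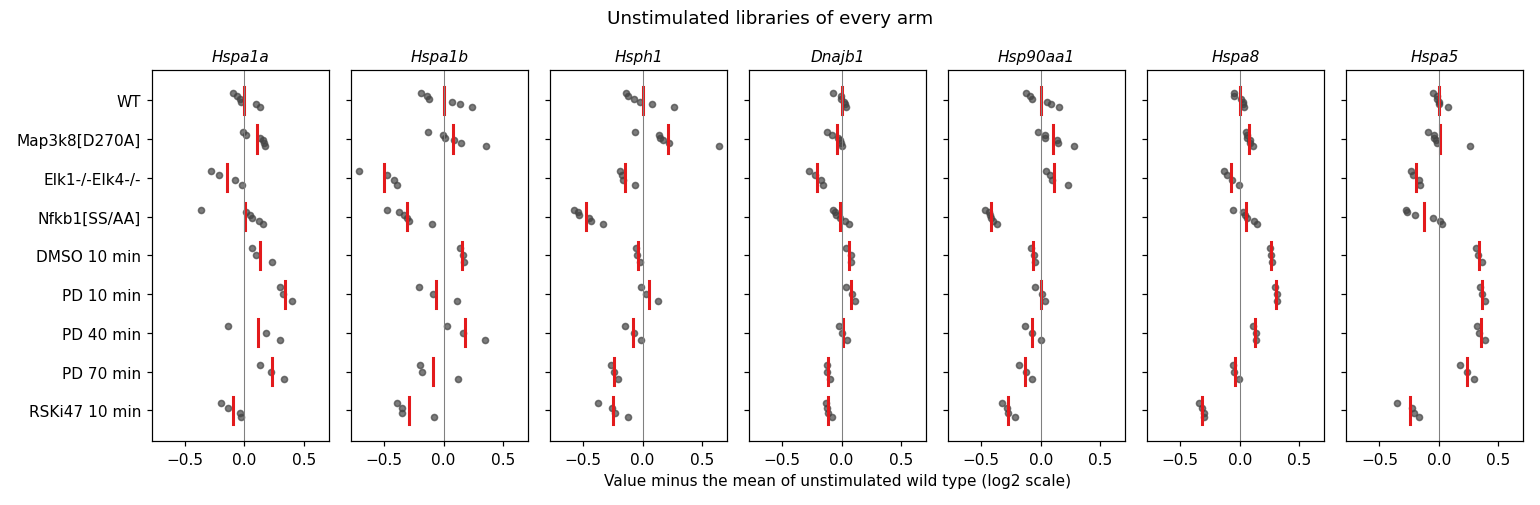
Each of the 38 unstimulated libraries as its value minus the mean of unstimulated WT cells (horizontal axis, log2 scale) by group (vertical axis) for the 7 members, with red bars at group means. *Hspa8* and *Hspa5* lie to the right in the DMSO and early PD0325901 groups and to the left in RSKi47, and *Hsph1* and *Hsp90aa1* lie to the left in *Nfkb1*[SS/AA].

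Other genes of protein folding were counted in LPS-treated WT cells, where 12%, 47.7% and 72% of all genes were called at 0.5, 1 and 2 h. Of 38 tested cytosolic and nuclear chaperones and cochaperones, 3 were higher and 0 lower at 0.5 h, 14 higher and 5 lower at 1 h, and 25 higher and 6 lower at 2 h, with a median difference at 2 h of 0.22, against -0.02 over all genes. The counts called at 1 and 2 h are near the shares over all genes. *Dnajb4*, a J-domain protein, was 0.73 higher at 0.5 h and 1.63 higher at 1 h. *Dnajb2*, also a J-domain protein, was 1.06 higher at 1 h and 1.40 higher at 2 h, when *Stip1*, the adaptor between HSP70 and HSP90, was 1.11 higher. *Hspa2*, a further HSP70, was 0.58 lower at 2 h. *Bag3*, an HSF1 target and HSP70 cochaperone, was 0.33 higher at 1 h, and *Hsp90ab1* was 0.15 higher at 2 h. *Hspb1*, the small heat shock protein gene, did not reach the level needed for testing.

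Among 24 ER chaperone and unfolded protein response genes, 0 were higher and 1 lower at 0.5 h, 6 higher and 0 lower at 1 h, and 9 higher and 4 lower at 2 h, with a median at 2 h of 0.03, so that at each time a smaller share was called than over all genes. *Herpud1*, of ER-associated degradation, was 0.73 higher at 1 h, *Sel1l* of the same process was 0.55 higher at 2 h, and the ER J-domain gene *Dnajb9* was 0.23 lower at 2 h, while *Hsp90b1*, the ER HSP90, was at -0.06 (adjusted p = 0.32). Of 10 mitochondrial chaperone genes, 3 were higher and 3 lower at 1 h and 2 higher and 2 lower at 2 h, with *Hspa9*, the mitochondrial HSP70, 0.34 higher at 2 h and *Hspd1* and *Hspe1* at 0.10 and -0.04 without passing the test. Of 5 tested heat shock regulators, *Hsf2* was 0.33 higher at 1 h, and *Hsf1* was at 0.09 (adjusted p = 0.165) at 1 h and 0.18 higher at 2 h (adjusted p = 0.00288).

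Without LPS, DMSO cells had 13 of 24 genes of the ER list higher than WT and 0 lower, when 23.6% of all genes were called, with a median of 0.19, among them *Calr* (0.40), *Pdia4* (0.32) and *Hsp90b1* (0.26). In *Elk1*-/-*Elk4*-/- cells 7 genes of this list were higher and 14 lower, when 53.6% of all genes were called. RSKi47-treated cells had 5 of 38 cytosolic and nuclear genes higher and 14 lower than WT, when 53% of all genes were called. In these cells *Bag3* was 0.56 higher than in WT, when *Hsf1* was 0.19 lower and *Hspd1* 0.31 lower. Each of these comparisons sets whole experiments against each other.

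The genes whose levels ran most like each member over the 119 libraries were found by Pearson's r, as a description, since libraries share arms and LPS times. For *Hspa1a* they were *Tnfaip3* (r = 0.961), *Cxcl1* (0.957) and *Nfkbiz* (0.955), and for *Hspa1b* they included *Marcksl1* (0.936) and *Tmem200b* (0.931). *Hspa1a* and *Hspa1b* had r = 0.902 with each other. *Hsph1* ran most like *Pdk1* (0.901), *Hsp90aa1* like *Lcp1* (0.888), *Hspa5* like *Hnrnpm* (0.825), *Hspa8* like *Cetn2* (0.746) and *Dnajb1* like *Plekhh3* (0.690). In the 38 unstimulated libraries, *Hsph1* and *Hsp90aa1* had r = 0.850 and *Hspa1a* and *Hspa1b* 0.507.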

How the data were processed

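RNA-seq libraries of mouse BMDMs were aligned by the authors to mm10 with STAR, and counts per RefSeq gene were estimated with RSEM. The reads were single-end and strand-specific. The authors deposited normalized values on a log2 scale, by a transformation that the methods and labels do not name. Values lay between -2.40 and 19.81, and 1 value above a limit of 25 was treated as missing. The values hold no read totals of each library, so the spread between replicates sets the precision. Differences were taken as log2. If they were natural logarithms, 2-fold would stand at 0.693.

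Groups followed the sample labels. A single limma 3.58.1 fit (R 4.3.3) over 119 libraries, with a mean per group, was run on the 11971 genes whose linear value reached 10 in 3 or more libraries, and was tested on simulated data. A gene was called at an adjusted p below 0.05, and 52 comparisons were fitted. Replicate numbers were taken to pair libraries within WT and within *Nfkb1*[SS/AA] cells, where same-numbered libraries of different times deviated together in all of 30 and 18 pairs (lowest correlation 0.164 and 0.145). Labels call libraries replicates without saying whether cultures shared a mouse, so p-values measure the spread between these libraries, pooled over the groups. Members, gene lists and named genes (the 7 members, up to 2 list genes in each direction, 9 fixed chaperone or HSF genes, and the 3 genes most like a member) were chosen with earlier results of these data known. Some genes that this rule names are not reported here. Promoter sequences are from RefSeq, GRCm38.p6, and the transcripts of *Hspa1a* and *Hspa1b* that were compared are from GENCODE, not the RefSeq models the authors counted.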

Additional observations from a re-analysis of the deposited data

Results flagged for a closer look

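In groups of 4 to 10 libraries, 12 of 140 tests of a member found 1 library far from the rest of its group, when about 1 in 20 is flagged by chance. *Map3k8*[D270A] replicate 4 was high for *Hspa5* without LPS (14.78), at 0.5 h (14.90) and at 1 h (15.00), and for *Hsp90aa1* at 1 h (13.72). *Elk1*-/-*Elk4*-/- replicate 4 at 0.5 h was high for *Hsph1* (10.12) and *Hsp90aa1* (13.52). *Nfkb1*[SS/AA] replicate 3 without LPS was low for *Hspa1a* (7.35), and replicate 1 at 0.5 h was high for *Hspa1b* (8.21). *Hspa1b* was high in WT replicate 7 at 2 h (10.32) and in RSKi47 replicate 3 without LPS (7.10). In PD0325901-treated cells *Dnajb1* was low in replicate 3 at 0.5 h of LPS (9.50) and high in replicate 6 at 1 h (9.48).

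Of 91 differences between the LPS responses of an arm and of WT, 9 passed limma's test. For *Map3k8*[D270A] they were *Dnajb1* at 1 h (-0.32) and 2 h (-0.20) and *Hspa8* at 2 h (-0.16). For *Elk1*-/-*Elk4*-/- cells it was *Hspa8* at 2 h (0.16), and for *Nfkb1*[SS/AA] cells *Hspa1b* at 1 h (-1.22). For RSKi47 they were *Hspa1b* (-1.03) and *Dnajb1* (0.26) at 1 h and *Hsph1* (0.42) and *Dnajb1* (0.20) at 2 h. For all but the first arm, arm and experiment cannot be told apart.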

How the results depend on the processing

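Of 3234 values of a member recomputed under an alternative, 3110 stayed on their side of the threshold, where values that were not called could change sign, 68 lost a call, 50 gained one, and 6 that were called in at least 1 of the fits changed sign. After quantile normalization *Hspa8* was at -0.18, -0.43 and -0.25 in WT cells (1 h, 2 h, and 2 h against 1 h), *Hspa5* at -0.0014 (2 h) and *Hsp90aa1* at -0.035 (2 h against 1 h). With the replicate block, *Hspa5* in *Nfkb1*[SS/AA] against WT without LPS was at 0.00015, which rests on the replicate numbers that both arms have and is no paired check. No filter on low values, an intensity trend and the 0.693 threshold changed no count of members called by over 1.5 times. The count of members called changed as follows. Quantile normalization gave 2 in WT at 0.5 h, 1 in *Map3k8*[D270A] at 1 h, 1 for its response at 2 h, 5 in *Elk1*-/-*Elk4*-/- without LPS, 1 for the PD0325901 response at 1 h and 0 for PD0325901 at 40 min. WT replicates 4 to 6 with *Map3k8*[D270A] 1 to 3 gave 2 in WT at 0.5 h, 0 in the mutant at 0.5 h and 4 for its response at 2 h. The other set gave 1 in the mutant at 1 h, and no count is given at 2 h, where it has 1 WT library. The replicate block gave 2 and 4 for the *Map3k8*[D270A] responses at 1 and 2 h (adding *Hspa5*, -0.21 and -0.22, and at 2 h *Hsp90aa1*, -0.19; same-numbered *Map3k8*[D270A] libraries correlated above 0.1 in 34 of 36 pairs), 2 for the *Nfkb1*[SS/AA] response at 1 h, and 2 and 5 for PD0325901 at 40 and 70 min. It also added *Hspa5* (-0.17) at 1 h and *Hspa8* (0.12) at 2 h for the RSKi47 responses, where 20 of 21 same-numbered pairs correlated above 0.1, and at 70 min of PD0325901 *Hsph1* (-0.29), *Hsp90aa1* (-0.13) and *Hspa5* (-0.13), as did the compared arms alone. Same numbers in an arm and in WT correlated above 0.1 in 3 of 6 pairs for PD0325901, 1 of 9 for *Nfkb1*[SS/AA] and 0 of 12 for *Map3k8*[D270A]. Fits of the compared arms alone gave 1 for the *Map3k8*[D270A] response at 2 h and 2 and 5 for PD0325901 at 40 and 70 min, and median centering gave 2 for the *Nfkb1*[SS/AA] response at 1 h. The cause was not tested. Leaving out each replicate number of each arm in turn (35 fits) gave 2 to 4 members in WT at 0.5 h, and in *Map3k8*[D270A] against WT 0 to 1 without LPS, 1 to 2 at 0.5 h and 1 to 3 for the response at 2 h. It gave 0 to 1 for the *Elk1*-/-*Elk4*-/- response at 2 h and 3 to 5 without LPS, 1 to 2 for the *Nfkb1*[SS/AA] response at 1 h, 1 to 3 for the RSKi47 response at 2 h, 0 to 0 for PD0325901 at 40 min and 1 to 1 at 70 min.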
